A study of Oryctolagus cuniculus with 16 samples.

Results

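Cell-cell junction genes were taken from the count table by their symbols. They were the claudins (CLDN), cadherins (CDH), protocadherins (PCDH), connexins (GJA, GJB, GJC and GJD), nectins, genes with catenin symbols (CTNNA, CTNNB and CTNND), the TJP scaffolds, the junctional adhesion molecules JAM2, JAM3 and F11R, and PECAM1, ESAM, OCLN, MARVELD2 and CGN. The table listed 95 such symbols. Of these, 78 had a count in at least 1 of the 16 libraries, among 11925 genes of the series with a count, and the other 17 had none. The 78 comprised 13 of 18 cadherin symbols, 10 of 17 claudins, 15 of 17 connexins, 9 of 10 non-clustered and 11 of 13 clustered protocadherins, all 7 catenin symbols, all 5 immunoglobulin-family proteins (PECAM1, ESAM, F11R, JAM2 and JAM3), all 4 nectins, and TJP1, CGN, OCLN and MARVELD2. A count in all 16 libraries was found for 20 of the 78, and 26 had fewer than 50 counts in the whole series.

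The libraries came from 4 female New Zealand white rabbits. In rabbits 5 and 6 both common carotid arteries were ligated, which raises blood flow and wall shear stress (WSS) in the basilar artery. Rabbits 3 and 4 had sham surgery, and all tissue was taken 24 h after the operation. From each rabbit the intima, the inner layer with the endothelial cells (ECs), and the media, the muscular layer with the vascular smooth muscle cells (VSMCs), were cut separately by laser from the straight basilar artery (BA) and from the basilar terminus (BT), the bifurcation in which it ends. This gave 8 groups of 2 libraries, sham and ligated for each layer of the BA and of the BT. Each library pooled strips from several frozen sections of 1 rabbit, and the intimal strips include some underlying muscle. Counts assigned to named genes ranged from 5211886 to 17686105 in the intima and from 2154863 to 11219236 in the media. Levels below are TMM-normalised CPM, read counts scaled to a common library size. They are not divided by gene length, so they compare libraries and not genes.

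ECs are joined to each other by tight junctions, adherens junctions and gap junctions. Claudins, occludin and the junctional adhesion molecules seal the cleft between neighbouring cells and are bound inside the cell by zonula occludens scaffolds such as TJP1. Cadherins hold cells of the same kind together and pass the load to the actin cytoskeleton through catenins. Connexins form channels that let ions and small molecules pass between cells, among ECs, among VSMCs and across the layer between them. Brain arteries are known for tight endothelial junctions, which contribute to the blood-brain barrier.

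Some libraries stood apart from the rest. The BT intima library of sham rabbit 3 had the highest intimal level of leptomeningeal and fibroblast markers, with a summed level of 15976 CPM for the 8 measured genes (12599 CPM of it OGN) against 211 to 8644 CPM in the other intimal libraries. It also had the highest summed level of macrophage markers (1117 CPM) and of astrocyte markers (189 CPM, of which the transporter SLC4A4 gave 166 CPM), while the astrocyte genes GFAP, AQP4 and SLC1A2 were at 0 in it. Its summed endothelial marker level, 767 CPM, was the lowest of the 8 intimal libraries. Haemoglobin and other blood genes took 13.2% of the counts of the BT intima library and 9.72% of the BA intima library of sham rabbit 4, against 0.00047% in the BA intima library of sham rabbit 3. The BA media library of sham rabbit 4 held 1672 CPM of TTR, a transcript known from the choroid plexus. In these bulk samples, fewer cells of a type and less RNA per cell cannot be told apart.

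The heat map of members shows these levels across all libraries.

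**Figure D1:**
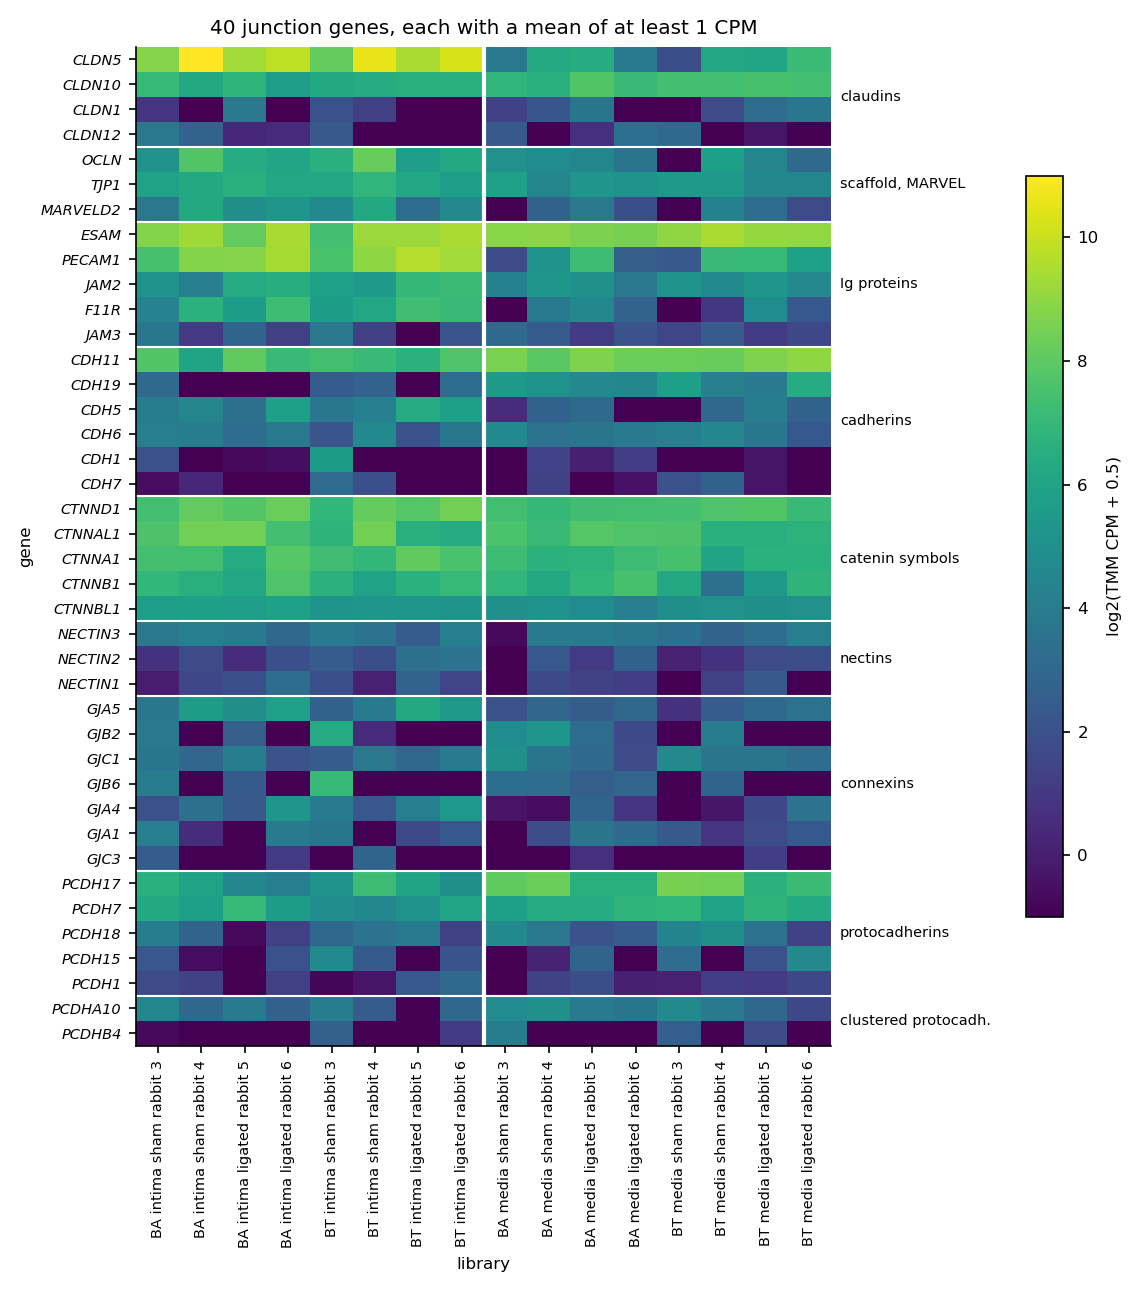
Levels of 40 junction genes with a mean of at least 1 CPM over the 16 libraries, as log2(TMM CPM + 0.5), with genes in rows by family and libraries in columns, intima on the left of the white line and media on the right. CLDN5 and PECAM1 are bright in all 8 intimal libraries and darker in all 8 medial ones, ESAM is bright in both layers, and GJB6, GJB2 and CDH1 are brightest in the BT intima of sham rabbit 3.

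The first comparison asked which junction genes differed between the intima and the media. CLDN5, PECAM1, GJA5, CDH5 and OCLN were higher in the intima, and PCDH17 and CDH11 were higher in the media. For this test, the counts of BA and BT were summed in each rabbit and layer, and the layers were compared within rabbits by edgeR's quasi-likelihood F test, with q-values from the Benjamini-Hochberg adjustment over all 9074 genes tested. Of the 78 junction genes, 47 passed the filter on low values. Among these 47, 5 had a q-value below 0.05 and a higher level in the intima, where the share over all genes tested was 2.56%, and 2 had a lower level, where the share was 1.59% (4.14% in either direction). At an unadjusted p below 0.05, 14 were higher (10.9% of all genes) and 5 were lower (8.52%). The median log2 fold change was 0.50 over the junction genes tested and 0.07 over all genes tested. With library sizes alone in place of TMM these medians were 0.68 and 0.25, and the genes called higher and lower among all genes went from 232 and 144 to 324 and 84.

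Among the tight junction genes, CLDN5, the claudin that is known to dominate endothelial tight junctions in the brain, separated the layers completely. It ranged from 290.0 to 2219 CPM (median 816) in the 8 intimal libraries and from 3.20 to 145 CPM (median 68.4) in the 8 medial libraries. The log2 fold change was 4.12 ± 0.38 (SE, 4 rabbits), with an edgeR q-value of 0.0050. OCLN, which encodes occludin, ranged from 35.5 to 292 CPM (median 80.9) in the intima and from 0 to 56.6 CPM (median 21.7) in the media, and the intima exceeded the media in 8 of 8 pairs, a pair being the layers of 1 rabbit at 1 location. Its log2 fold change was 2.13 ± 0.32 (edgeR q-value 0.0179). Both genes were highest in the intima of sham rabbit 4, the libraries with the most haemoglobin counts. The part of blood in these levels was not tested. MARVELD2, the tricellulin gene and the chromosomal neighbour of OCLN, had a median of 28.3 CPM in the intima and 4.68 CPM in the media, with an edgeR q-value of 0.153. The scaffold gene TJP1 had medians of 71.6 and 36.3 CPM and its intimal level was the higher one in 8 of 8 pairs, with a log2 difference of 1.13 ± 0.28 that did not pass the threshold (edgeR q-value 0.0725). CLDN10 was the other claudin with a count in all 16 libraries, from 50.8 to 132 CPM in the intima and from 97.8 to 213 CPM in the media, higher in the media in 7 of 8 pairs (log2 difference -0.72 ± 0.19, edgeR q-value 0.0901).

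The immunoglobulin-family proteins did not share a pattern. PECAM1, an adhesion molecule of ECs, ranged from 179 to 812 CPM (median 471) in the intima and from 2.92 to 148 CPM (median 47.2) in the media. The layers did not overlap, and the log2 fold change was 3.50 ± 0.60 (edgeR q-value 0.0261). F11R, which encodes a junctional adhesion molecule of endothelial and epithelial tight junctions, had a median of 86.8 CPM in the intima and 5.37 CPM in the media, with the intima above the media in 8 of 8 pairs. Its log2 difference of 4.24 ± 0.92 lay just outside the threshold (edgeR q-value 0.0507). ESAM, the endothelial cell-selective adhesion molecule, did not separate the layers: it ranged from 169 to 707 CPM in the intima and from 367 to 702 CPM in the media, with the intima above the media in 4 of 8 pairs. Its log2 difference was -0.03 ± 0.20 (edgeR q-value 0.950), and its sign changed under other settings. In the BA media of sham rabbit 3, ESAM was at 472 CPM and PECAM1 at 2.92 CPM. JAM2 had medians of 69.6 CPM in the intima and 29.0 CPM in the media (edgeR q-value 0.202), and JAM3 was low in both, with medians of 2.93 and 3.12 CPM.

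Of 7 cadherins tested between the layers, 1 was called higher in the intima and 1 lower. CDH5, the vascular endothelial cadherin of EC adherens junctions, ranged from 10.3 to 82.6 CPM (median 19.4) in the intima and from 0 to 15.9 CPM (median 6.15) in the media, with the intima above in 8 of 8 pairs. Its log2 fold change was 2.83 ± 0.56 (edgeR q-value 0.0413). CDH11, a cadherin of mesenchymal cells, ranged from 64.2 to 271 CPM (median 153) in the intima and from 241 to 494 CPM (median 349) in the media, and was lower in the intima in 8 of 8 pairs. Its log2 fold change was -1.22 ± 0.17 (edgeR q-value 0.0135). CDH19, a cadherin known from Schwann cells and their precursors, was at 0 in 4 of 8 intimal libraries and at most at 8.98 CPM in the others, against 14.3 to 86.5 CPM in the media. Its layers did not overlap, with a log2 difference of -4.01 ± 0.89 that missed the threshold (edgeR q-value 0.0542). CDH6, with a count in every library, had medians of 13.0 and 14.0 CPM (edgeR q-value 0.790). No overlap between the 8 intimal and 8 medial libraries was seen for CLDN5, PECAM1 and CTNNBL1 above, where 0.486% of all genes with a count did so, and for CDH19 below, where 0.277% did so.

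PCDH17, a non-clustered protocadherin, was higher in the media in 8 of 8 pairs. It ranged from 17.6 to 150 CPM (median 47.6) in the intima and from 91.5 to 374 CPM (median 207) in the media, with a log2 fold change of -1.83 ± 0.23 (edgeR q-value 0.0107). PCDH7, another member of that group, had medians of 51.2 and 84.3 CPM (edgeR q-value 0.197). None of the 6 catenin symbols tested passed the threshold. CTNNB1 (beta-catenin) had medians of 102 CPM in the intima and 93.3 CPM in the media, CTNNA1 (alpha-catenin) 172 and 105 CPM, and CTNND1 (p120-catenin, which binds cadherins at the membrane) 254 and 166 CPM. CTNNBL1, whose product is a splicing factor partner in spite of its name, was at 36.1 to 57.5 CPM in the intima and 16.8 to 35.5 CPM in the media (edgeR q-value 0.220).

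Among the connexins, GJA5 passed the threshold. Its product joins ECs of arteries, and it ranged from 6.09 to 78.9 CPM (median 37.5) in the intima and from 1.16 to 10.6 CPM (median 6.32) in the media, and all 8 pairs had more in the intima. The log2 fold change was 2.43 ± 0.34 (edgeR q-value 0.0134). GJA4, a second arterial endothelial connexin, had medians of 12.4 and 0.82 CPM, the intima being above in 7 of 8 pairs, with a log2 difference of 3.36 ± 0.82 that did not pass (edgeR q-value 0.0706). GJA1, the most widely expressed connexin in the body, was low in both layers here, with medians of 3.52 and 3.77 CPM (edgeR q-value 0.975). GJC1, known from smooth muscle, had medians of 9.99 and 11.8 CPM.

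**Figure D2:**
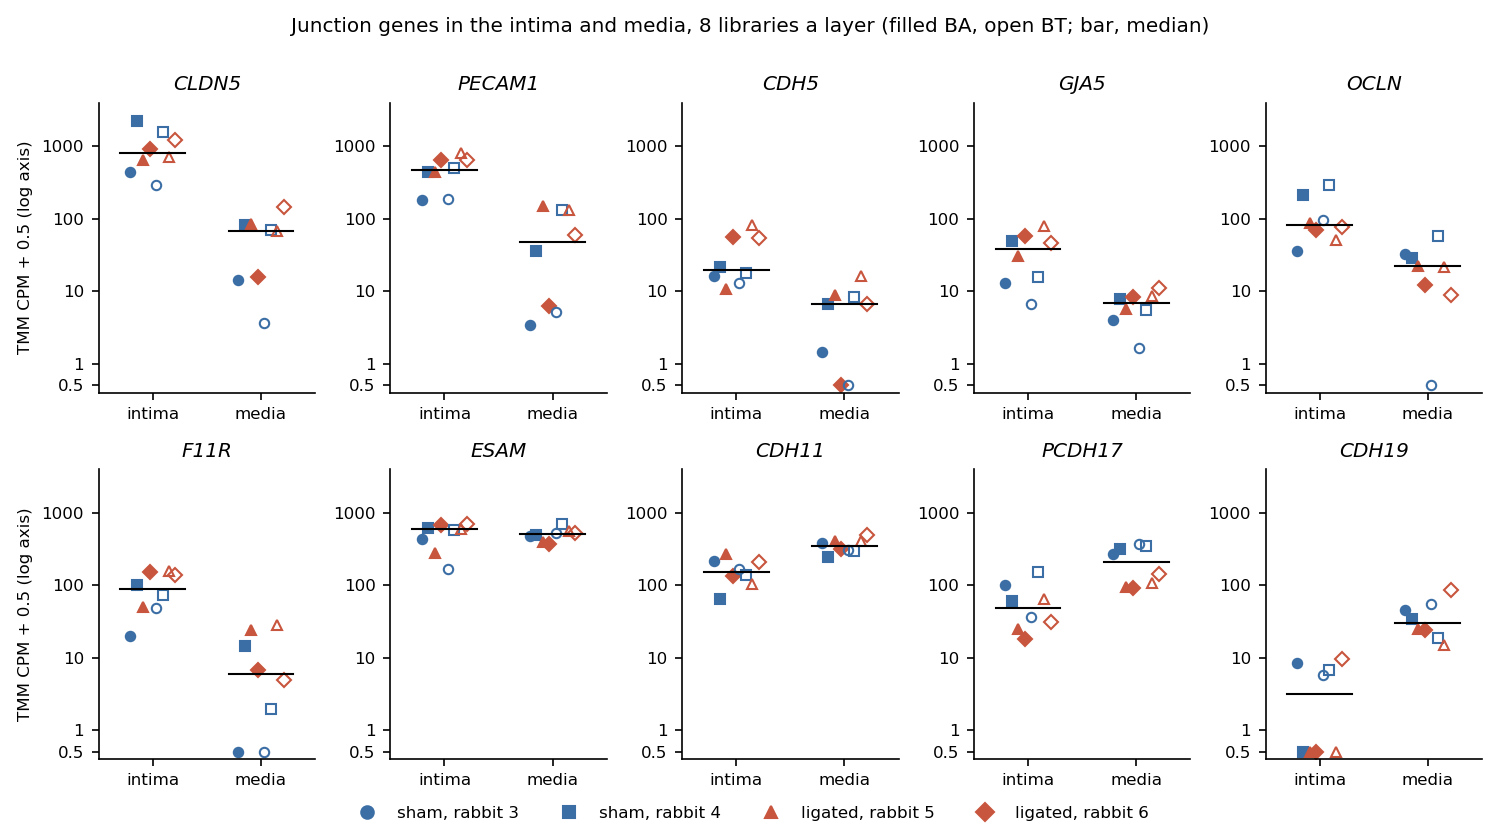
TMM CPM + 0.5 on a log axis for 10 junction genes in the 8 intimal and 8 medial libraries, with BA filled, BT open, sham rabbits blue, ligated rabbits red, and the median as a bar. CLDN5 and PECAM1 sit higher in every intimal library than in any medial one, ESAM overlaps, and CDH11, PCDH17 and CDH19 sit higher in the media.

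The layer calls depended on which rabbits were kept. Without rabbit 3 all 7 were kept, among 10 junction genes called. Leaving out rabbit 4 or rabbit 6 left CLDN5 as the only junction gene called, at edgeR q-values of 0.0463 and 0.0412. The other 6 kept their directions, with q-values of 0.0825 to 0.143 without rabbit 4 and 0.0760 to 0.204 without rabbit 6. The CDH5 call was also lost without rabbit 5 (q-value 0.0790). Without the BT libraries of rabbit 3, the calls for CDH5 (q-value 0.0546) and OCLN (q-value 0.0998) were lost and that for F11R was gained. General markers of the layers moved in the same comparison. At an edgeR q-value below 0.05, 7 of 12 endothelial markers were higher in the intima (2.56% of all genes) and 1, MMRN2, was lower (1.59%). At the same threshold, 5 of 10 smooth muscle markers and 3 of 3 pericyte markers were lower. Without a threshold, 10 endothelial markers had higher and 2 lower values, and 9 smooth muscle markers had lower values and 1 a higher value. Leptomeningeal and fibroblast markers had lower values in the intima for 7 of 7 tested genes, 6 at an unadjusted p below 0.05 and 1 at a q-value below 0.05, with a median log2 difference of -1.82. Both blood genes tested were higher in the intima at a q-value below 0.05, with a median log2 difference of 4.42. The summed endothelial level was 767 to 3590 CPM in the intima and 149 to 1095 CPM in the media, and the summed smooth muscle level was 12118 to 84809 CPM and 84035 to 142363 CPM. The part of endothelial RNA carried into medial strips, of muscle RNA carried into intimal strips, of leptomeningeal and fibroblast RNA in the media and of blood in the intima was not tested.

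The second comparison asked what ligation did to junction genes within each layer and location, with 2 ligated against 2 sham rabbits in each of 4 fits. PCDH17 was lower after ligation in the BT media, and no other junction gene tested in these 4 fits had an edgeR q-value below 0.05. The plot of flow effects gives the log2 fold changes.

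**Figure D3:**
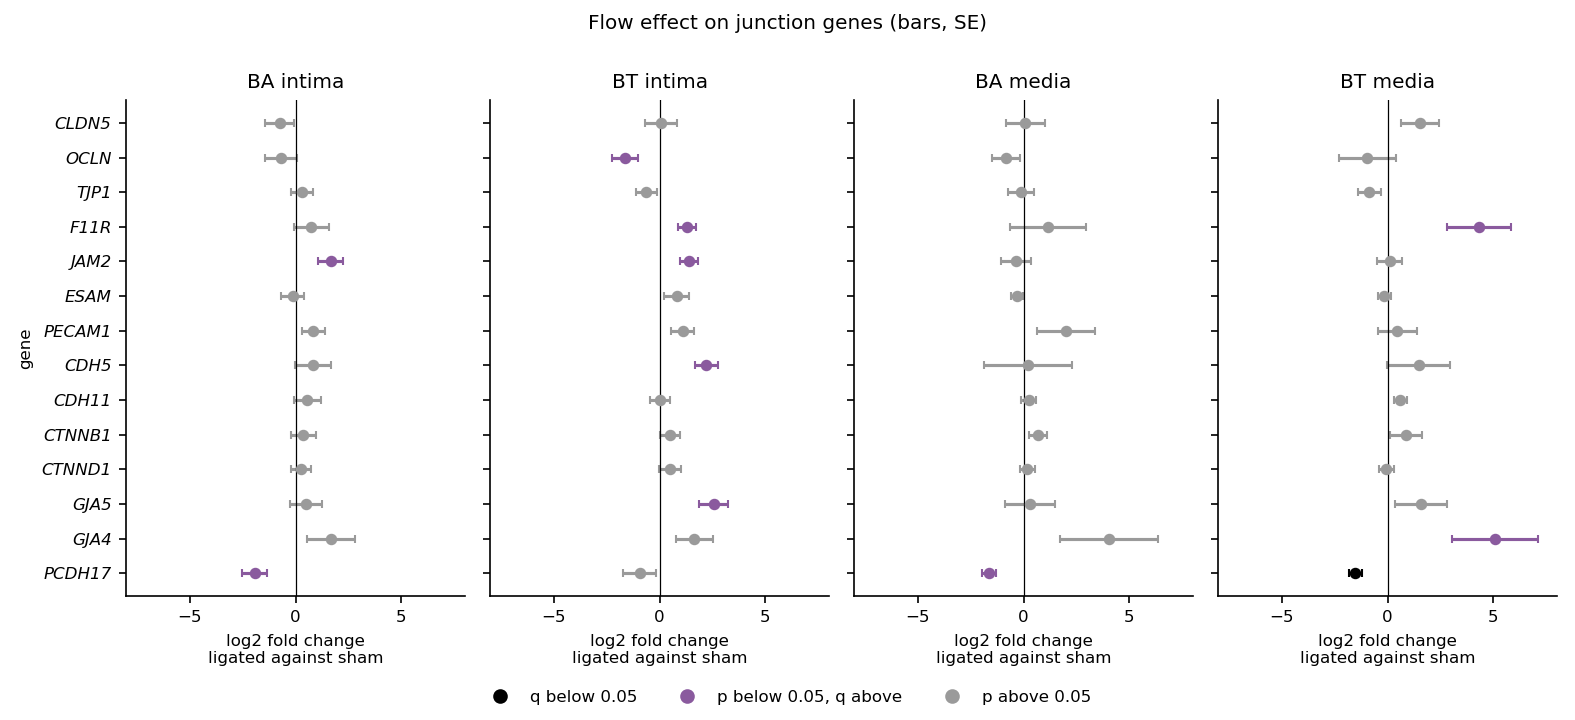
Log2 fold changes of ligated against sham rabbits (horizontal axis, bars are SE from edgeR's quasi-likelihood fit) for 14 junction genes in each layer of the BA and of the BT, 2 rabbits against 2 per panel. PCDH17 lies below 0 in all 4 panels and has a q-value below 0.05 in the BT media, and CDH5 and GJA5 lie at 2.20 and 2.55 in the BT intima.

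PCDH17 in the BT media was at 374 and 348 CPM in the sham rabbits and at 106 and 144 CPM in the ligated rabbits. The log2 fold change was -1.52 ± 0.33 (edgeR q-value 0.0347). It was 1 of 40 junction genes tested there, where 1.18% of all genes tested were called lower and 2.35% in either direction. In the BA media it was at 270 and 314 CPM in the sham and at 93.4 and 91.5 CPM in the ligated rabbits, with a log2 difference of -1.64 ± 0.34 that did not pass the threshold (edgeR q-value 0.0745). In the BA intima the levels were 99.1 and 59.7 CPM in the sham and 24.2 and 17.6 CPM in the ligated rabbits (log2 difference -1.93 ± 0.59, edgeR q-value 0.734). In the BT intima the groups overlapped, at 35.5 and 150 CPM in the sham and 64.3 and 30.7 CPM in the ligated rabbits. The BT media call did not hold when rabbit 5 (q-value 0.240) or rabbit 6 (q-value 0.158) was left out, nor with library sizes alone (q-value 0.0571), the version 4 form of the edgeR test (q-value 0.0560) or a fit over all 16 libraries (q-value 0.286), and the direction was kept each time.

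The summed level of leptomeningeal and fibroblast markers was lower in the ligated media libraries, mainly through OGN at the BT. The sum over 8 measured genes was 18393 and 12119 CPM in the BA media and 10876 and 14630 CPM in the BT media of sham rabbits, against 5048 and 4378 CPM and 3198 and 4756 CPM in ligated rabbits. Without OGN the sums in the BT media overlapped, at 2554 and 2831 CPM in the sham and 1749 and 3231 CPM in the ligated rabbits. Of 7 markers tested, 2 were called lower and 1 higher in the BA media, and 1 was called lower in the BT media, where 5 had lower and 2 higher values. The most abundant gene, OGN, fell in both places by the same test, with log2 fold changes of -1.84 in the BA media (edgeR q-value 0.0219) and -2.75 in the BT media (edgeR q-value 0.0012), and SLC13A3 was at 0 in 7 of these 8 libraries. ALDH1A2 of the same list rose in the BA media, with a log2 fold change of 2.47 (edgeR q-value 0.0311). Smooth muscle markers had a median log2 difference of -0.84 in the BT media, where 3 of 10 fell at a q-value below 0.05, and of -0.08 in the BA media, where 0 did by edgeR (2 higher and 2 lower at an unadjusted p below 0.05). The part of these cell types in the PCDH17 difference was not tested.

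GJA4 was at 0 to 0.32 CPM in the 4 sham media libraries and at 1.31 to 11.3 CPM in the 4 ligated ones. In the BT media its log2 difference was 5.08 ± 2.03 (edgeR q-value 0.239), from levels of 0 and 0.32 CPM in the sham rabbits. Endothelial markers had higher values after ligation for 11 of 12 genes tested in the BA media (median log2 difference 2.01). In the BT media 6 of 10 did (median 0.58), and 1 was higher at an unadjusted p below 0.05 in each. Their part in the GJA4 difference was not tested. GJA5 in the BT intima was at 6.09 and 15.4 CPM in the sham and at 78.9 and 45.2 CPM in the ligated rabbits (log2 difference 2.55 ± 0.69, edgeR q-value 0.286), and in the BA intima the groups overlapped at 12.7 and 48.8 CPM and at 29.7 and 57.0 CPM.

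**Figure D4:**
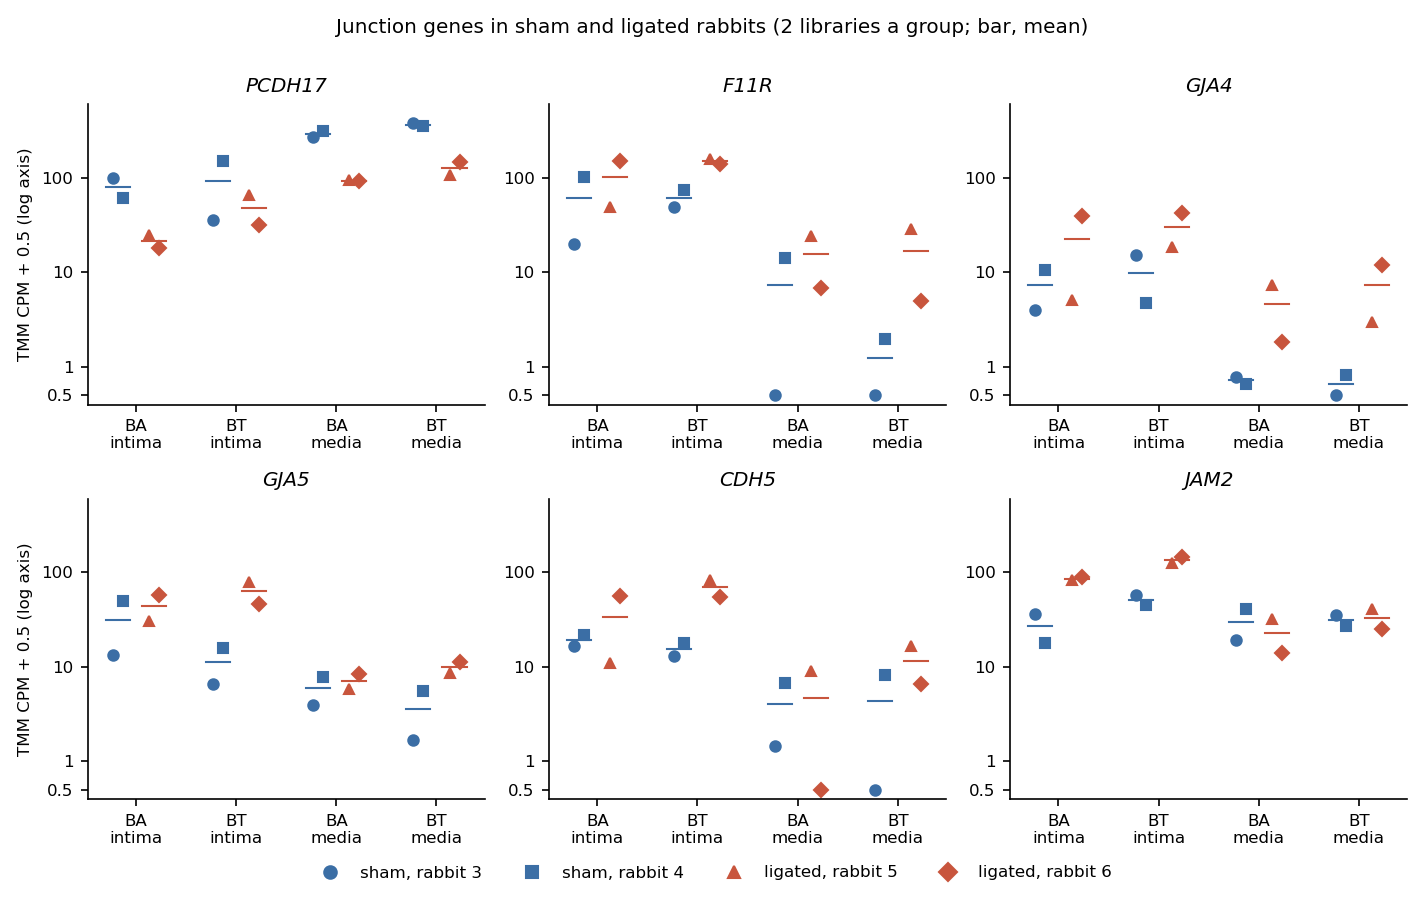
TMM CPM + 0.5 on a log axis for 6 junction genes in each of the 16 libraries, by location and layer, with sham rabbits in blue, ligated rabbits in red and the group mean as a bar. PCDH17 is lower in all 4 ligated media libraries than in any sham one, and JAM2 is higher in all 4 ligated intimal libraries than in any sham one.

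In the BT intima none of the 47 junction genes tested had a q-value below 0.05 by edgeR, where none of all 9273 genes did. At an unadjusted p below 0.05, 6 were higher after ligation (4.30% of all genes) and 8 were lower (7.33%), and DESeq2 called 8, where it called 6.61% of all genes. The 6 included GJA5, CDH5, JAM2, F11R and PCDH1. CDH5 was at 12.6 and 17.4 CPM in the sham and at 82.6 and 54.2 CPM in the ligated rabbits. The log2 difference of 2.20 ± 0.54 did not pass (edgeR q-value 0.279). F11R was at 48.0 and 73.5 CPM and at 157 and 139 CPM (log2 difference 1.29 ± 0.44, edgeR q-value 0.352). JAM2, a junctional adhesion molecule of ECs, was at 57.5 and 44.1 CPM and at 125 and 144 CPM in the BT intima (log2 difference 1.41 ± 0.43, edgeR q-value 0.321), and at 35.9 and 17.3 CPM and at 81.7 and 88.5 CPM in the BA intima (log2 difference 1.67 ± 0.59, edgeR q-value 0.756). None of these passed the threshold. CLDN5 overlapped between the groups of the BT intima, where it was at 290.0 and 1561 CPM in the sham and at 707 and 1218 CPM in the ligated rabbits. OCLN, in contrast to the 6, was at 97.4 and 292 CPM and at 50.6 and 75.8 CPM (log2 difference -1.62 ± 0.61, edgeR q-value 0.393, and -0.66 without rabbit 4). Endothelial markers as a group had a median log2 difference of 1.10 in the BT intima, with 5 of 12 higher and 1 lower at an unadjusted p below 0.05, and their summed level was 767 and 3590 CPM in the sham and 2801 and 2515 CPM in the ligated rabbits. Leptomeningeal and fibroblast markers had lower values after ligation for 8 of 8 genes tested, 4 at an unadjusted p below 0.05, with summed levels of 15976 and 4656 CPM in the sham and 211 and 474 CPM in the ligated rabbits. Macrophage markers had lower values for 8 of 10, 6 at an unadjusted p below 0.05. The part of these cell types in the differences of the junction genes was not tested.

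The 8 lower genes of the BT intima were OCLN and 7 genes at 0 in both ligated libraries: GJB2, GJB6, CDH1, CDH2, CDH7, CLDN1 and CLDN19. For GJB6, GJB2, CDH1 and CDH2 the sham level in the BT intima came mainly from the library of rabbit 3. GJB6, a connexin known from astrocytes, the inner ear and epithelia, was at 129 CPM in it and at 0 in sham rabbit 4, and this 1 library held 68.7% of its summed CPM over the 16 libraries. GJB2, the neighbouring connexin gene, was at 82.9 and 0.88 CPM, with 42.2% of its summed CPM in that library, and also at 27.1 and 39.4 CPM in the sham BA media. CDH1, the epithelial cadherin, was at 46.0 and 0 CPM, with 84.4% of its summed CPM in that library. CDH2, the neural cadherin, was at 11.4 and 1.32 CPM, with 82.9% of its summed CPM there. Without rabbit 3 the sham group had 0 CPM of GJB6 and CDH1, and CDH2 had an edgeR q-value of 0.676. Leaving out rabbit 4 left rabbit 3 as the only sham library. That fit cannot test GJB6 or GJB2, since their sham level then rests on the 1 library in which they were high. CLDN19 was the exception, at 0.27 CPM in sham rabbit 3 and 13.3 CPM in sham rabbit 4. In the BT intima library of sham rabbit 3, TTR was at 100.3 CPM, against 0 to 3.27 CPM in the other intimal libraries. The desmosome genes DSG2 and DSP were at 60.2 and 46.2 CPM in it, against at most 10.0 and 11.4 CPM in the other intimal libraries. The part of these transcripts, and of the leptomeningeal and fibroblast, macrophage and astrocyte markers that were also highest among intimal libraries there, was not tested.

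**Figure D5:**
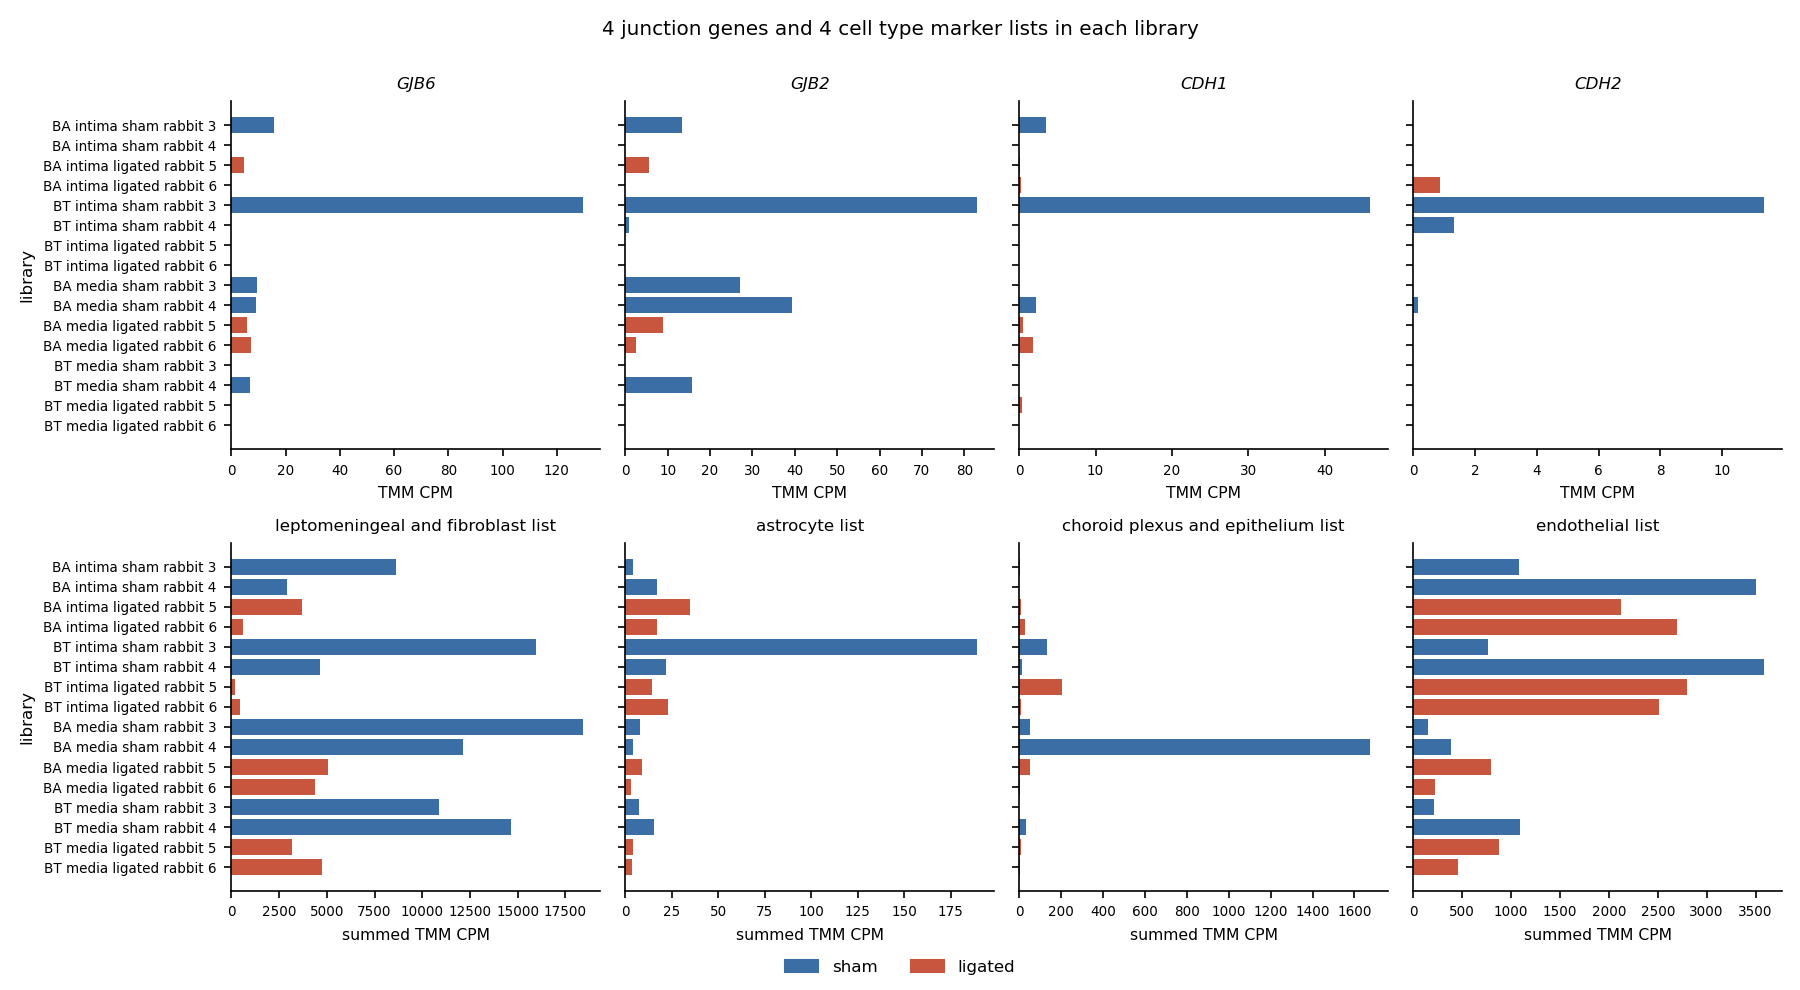
TMM CPM of GJB6, GJB2, CDH1 and CDH2 in each of the 16 libraries (upper row) and the summed TMM CPM of 4 cell type marker lists in the same libraries (lower row), with sham in blue and ligated in red. The BT intima of sham rabbit 3 has the longest bar for all 4 genes and for the astrocyte list, and the shortest endothelial bar among intimal libraries.

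In the BA intima none of 43 junction genes tested had a q-value below 0.05 by edgeR, as none of all 8974 genes did, and DESeq2 called 0 junction genes and 1.36% of all genes. At an unadjusted p below 0.05, 2 were higher (JAM2 among them, against 2.52% of all genes) and 2 were lower (PCDH17 and CLDN12, against 3.43%), 5.95% in either direction. CLDN12 was at 13.2 and 6.35 CPM in the sham and at 0.75 and 0.86 CPM in the ligated rabbits. In the same comparison smooth muscle markers had lower values for 8 of 10 genes tested, 3 at an unadjusted p below 0.05. Their median log2 difference was -0.58. Leptomeningeal and fibroblast markers had lower values for 4 of 7 genes, 2 at an unadjusted p below 0.05, and higher values for 3. The part of these cell types in the PCDH17 difference was not tested. Summed endothelial marker levels in the BA media overlapped, at 149 and 389 CPM in the sham and 792 and 218 CPM in the ligated rabbits. Of the 12 endothelial markers tested there, 11 had higher values after ligation, 1 at an unadjusted p below 0.05, with a median log2 difference of 2.01. In the BA media none of 41 junction genes had a q-value below 0.05 by edgeR, where 0.807% of all genes did. There 3 were lower at an unadjusted p below 0.05 (PCDH17, PCDH18 and GJB2, against 6.98% of all genes) and 0 were higher, against 6.62%, and DESeq2 called 1, PCDH17, and 5.77% of all genes. In the BT media 3 were higher at an unadjusted p below 0.05 (GJA4 and F11R among them, against 7.96%) and 3 were lower (PCDH17, PCDH18 and GJB2, against 7.99%), and DESeq2 called 4 and 6.76% of all genes. F11R in the BT media was at 0 and 1.45 CPM in the sham and at 28.0 and 4.44 CPM in the ligated rabbits. Endothelial markers had higher values there for 6 of 10 genes tested, with a median log2 difference of 0.58, and their part in the F11R difference was not tested.

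Across both locations, 4 ligated and 4 sham libraries of a layer did not overlap for 6 junction genes. In the intima 2 were above, JAM2 among them (4.61% of all genes with a count were), and CDH7 was below (5.31%), although its lowest sham level, 0.17 CPM, did not exceed the limit that a count of 0 allows in the ligated libraries. In the media GJA4 was above (5.84%), and PCDH17 and PCDH18 were below (6.10%). PCDH18, also a non-clustered protocadherin, was at 13.1 to 30.6 CPM in the sham and at 2.10 to 10.6 CPM in the ligated media libraries. Sham and ligated media libraries overlapped for ESAM (472 to 702 and 367 to 554 CPM), for CTNND1 (125 to 204 and 139 to 217 CPM) and for CDH11 (241 to 380 and 317 to 494 CPM).

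The third comparison set the BT against the BA within rabbits. In the intima none of 47 junction genes had a q-value below 0.05 by edgeR, where 0.0110% of all genes did, and DESeq2 called 0 and 0.394% of all genes. At an unadjusted p below 0.05, 1 was higher at the BT (JAM2, log2 difference 0.83 ± 0.26, against 1.79% of all genes) and 3 were lower (CTNNAL1, CLDN12 and PCDH7, against 2.05%), with 3.83% of all genes in either direction. All 10 smooth muscle markers tested had lower values in the BT intima, 6 of them at an unadjusted p below 0.05, with a median log2 difference of -1.20, and their part in these differences was not tested. In the media none of 41 had a q-value below 0.05 by edgeR, where 0.0227% of all genes did. At an unadjusted p below 0.05, PECAM1 was higher at the BT (2.45% of all genes were) and 4 genes were lower (GJB2, GJB6, CTNNB1 and CTNNAL1, against 2.83%), with 5.28% in either direction, and DESeq2 called 3 and 0.634% of all genes. Endothelial markers had higher values at the BT for 10 of 12 genes, 2 at an unadjusted p below 0.05, with a median log2 difference of 0.69. Smooth muscle markers had lower values for 9 of 10 genes, 0 at an unadjusted p below 0.05, with a median log2 difference of -0.23. The 1 with a higher value was at an unadjusted p below 0.05. Both choroid plexus and epithelium markers tested, 2 genes, had lower values at the BT, 1 at an edgeR q-value below 0.05, with a median log2 difference of -3.45. The part of these cell types in the differences of PECAM1 and the 4 lower genes was not tested. CTNNB1 was lower at the BT than in the BA of the same rabbit in all 4 rabbits, at 75.5, 10.2, 42.4 and 111 CPM against 117, 75.2, 121 and 182 CPM in rabbits 3 to 6 (log2 difference -1.40 ± 0.36, edgeR q-value 0.430). GJB6 was at 5.80 to 9.61 CPM in the 4 BA media libraries and at 0 in 3 of the 4 BT media libraries, with 6.77 CPM in that of sham rabbit 4.

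Whether the flow effect differed between the BA and BT, or between the layers, was tested as an interaction. None of the 43 to 50 junction genes tested passed a q-value of 0.05 by edgeR in any of the 4 interactions. Over all genes tested, 0.502% passed for location by flow in the media (0.213% with a positive interaction) and 0% in the other 3. At an unadjusted p below 0.05 there were 5 for location by flow in the intima (1 positive, against 1.09% of all genes, and GJB2, GJB6, CLDN1 and CDH2 negative, against 2.35%, with 3.44% of all genes in either direction), 1 for location by flow in the media (CLDN5, interaction 2.41 ± 0.90, edgeR q-value 0.316, against 4.13% of all genes positive and 9.07% in either direction), 0 for layer by flow in the BA (against 2.44%) and 4 for layer by flow at the BT (CLDN5, PCDH15, CDH1 and CLDN1, all negative, against 3.08% of all genes negative and 4.84% in either direction). DESeq2 called 2 for layer by flow at the BT, where it called 1.15% of all genes, and 0 in the others. CLDN5 in the media was at 13.7 and 80.8 CPM in sham and 84.4 and 15.5 CPM in ligated BA, and at 3.20 and 69.8 CPM in sham and 67.0 and 145 CPM in ligated BT, so that each group spanned a wide range. In location by flow in the media, 9 of 10 smooth muscle markers had negative values, 2 at an edgeR q-value below 0.05. Macrophage markers had positive values for 8 of 9 there. Leptomeningeal and fibroblast markers went both ways, with positive values for 4 of 7 and negative values for 3. In this list, 2 were positive at an edgeR q-value below 0.05, and 2 were negative at an unadjusted p below 0.05. At the BT, layer by flow was negative for 9 of 10 macrophage and 7 of 8 leptomeningeal and fibroblast markers. Of these, 6 and 4 were at an unadjusted p below 0.05. Their part was not tested.

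Proteins that bind or regulate the junctions were followed as a separate list of 50 genes. Of 42 tested between the layers, 6 were higher in the intima and 1 was lower at an edgeR q-value below 0.05, against 2.56% and 1.59% of all genes, with a median log2 difference of 0.06. The higher ones were PTPRB and PTPRM, receptor phosphatases of endothelial adherens junctions, RASIP1, a Rap effector needed for vascular lumens, ICAM2, an adhesion molecule of ECs, AMOT (angiomotin) and EPS8, an actin regulator, and the lower one was the kinase ROCK2. ICAM2 was at 126 to 722 CPM in the intima and 0 to 113 CPM in the media (log2 fold change 4.01 ± 0.80, edgeR q-value 0.0413). All 7 calls were lost without rabbit 4 (q-values 0.0770 to 0.229) or rabbit 6 (q-values 0.0629 to 0.206), EPS8 also without rabbit 3 (0.0528), and EPS8, ROCK2 and AMOT without rabbit 5 (0.0916 to 0.136). After ligation, none of 42 partners passed in the BA intima (3 at an unadjusted p below 0.05, against 5.95% of all genes) or the BT intima (6, against 11.6%) by edgeR. In the BA media 1 of 40 passed, against 0.807% of all genes, and in the BT media 2 of 42 passed, against 2.35%. For location by flow in the media 1 of 42 partners passed by edgeR, with a negative value, against 0.288% of all genes. At an unadjusted p below 0.05, 9 were negative (4.94% of all genes) and 1 was positive (4.13%). ROCK1 had interaction values of -1.83 to -1.16 there without each rabbit, and its q-values by edgeR or DESeq2 reached 0.629 under the alternatives. RAP1B, a small GTPase that strengthens cadherin contacts, rose in the BA media, from 316 and 207 CPM to 1385 and 1291 CPM (log2 fold change 2.37 ± 0.33, edgeR q-value 0.0219). This call was lost when any of the 4 rabbits was left out (q-values 0.144 to 0.411) and with the version 4 form of the test (q-value 0.0588). RAP1B was also at 513 and 743 CPM in the ligated against 330 and 210 CPM in the sham BT media (edgeR q-value 0.0915), and at 770 to 1358 CPM in the ligated against 250 to 352 CPM in the sham intimal libraries. In the BT media ACTN1, an actin crosslinker, rose from 114 and 106 CPM to 462 and 372 CPM (log2 fold change 1.93 ± 0.32, edgeR q-value 0.0102), and AMOTL2, an angiomotin family member, fell from 303 and 587 CPM to 93.2 and 76.4 CPM (log2 fold change -2.39 ± 0.39, edgeR q-value 0.0086). Calls were lost for ACTN1 without rabbit 5 (q-value 0.0624) or 6 (q-value 0.0531), in a fit over the 8 libraries of the layer (q-value 0.0918) and over all 16 (q-value 0.399), and for AMOTL2 without rabbit 6 (q-value 0.0989) and over all 16 (q-value 0.186).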

How the data were processed

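RNA from laser-microdissected intima and media was amplified with SMART-Seq v4, prepared with Nextera and sequenced as single reads by the authors. Reads were aligned with STAR to OryCun2.0 and uniquely mapped reads were assigned to genes with featureCounts 1.6.2, giving the raw counts per gene that the authors deposited. These kits do not mark strand, whereas counting used the reverse-strand setting, so a gene and its antisense partner cannot be told apart. Clustered protocadherins share sequence and their counts are uncertain. Entries without a symbol (13.8% to 18.7% of counts) were left out.

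Junction genes and lists were chosen with earlier results of these data known. Counts were normalised by TMM and tested with edgeR 4.0.16 (glmQLFit and glmQLFTest), for genes with a mean above 1 CPM in at least 1 group, with Benjamini-Hochberg q-values over all genes tested and a threshold of 0.05. Flow fits took 2 ligated and 2 sham libraries. Layer, location and interaction fits had the rabbit as a block, since libraries of the same number came from the same rabbit; the correlation of their deviations was -0.035 to 0.068 in ligated and 0.026 to 0.394 in sham rabbits. Where no read was counted, the limit was set at 3 counts (0.170 to 1.39 CPM), which covers counting error only. Alternatives were DESeq2 1.42.0, other normalisations, filters and designs, and leaving out each rabbit. Genes named were 13 fixed genes, the 20 members with the highest mean CPM, and in each comparison members with a q-value below 0.05 or, where fewer than 3 passed in a direction, the 3 with the smallest p; a few further members were named after their values were seen. Neighbouring genes were read from RefSeq's mOryCun1.1 order. Self-tests used simulated data. Of the genes this rule would name, 1 is not reported here.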

Additional observations from a re-analysis of the deposited data

How the results depend on the processing

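Of 146 counts of junction genes called under an alternative, 32 moved by more than 1.5 times and 114 did not. Of these 114, 100 were 0, which says nothing about stability. The share of all genes called, given in parentheses, moved with the settings too, and the causes were not tested. In the BT intima after ligation the count of 0 became 5 with all genes with a count (3.12%) and 8 with DESeq2 (6.61%), and was 0 to 2 without each rabbit in turn, with 2 (1.24%) without rabbit 4. In the BA media the 0 became 2 with all genes (4.89%), 1 with DESeq2 (5.77%) and 1 in a fit over the 8 libraries of the layer (2.40%). In the BT media the 1 became 0 with library sizes alone (2.20%), 5 with all genes (5.32%), 4 with DESeq2 (6.76%) and 0 in a fit over all 16 libraries (0.215%). Without each rabbit it ranged from 0 to 8, with 5 (7.37%) without rabbit 3, 8 (609 of 8694 genes) without rabbit 4, and 0 without rabbit 5 (1.25%) or 6 (0.440%). Between the layers the 7 became 15 with DESeq2 (15.3%), 11 with the version 4 form of edgeR (7.74%), 0 with no replicate block (0%), 13 with 16 libraries and rabbit and location as replicate block (8.98%), 2 in the BA alone (0.499%), 3 in the BT alone (1.86%) and 3 in sham rabbits alone (1.43%). It ranged from 1 to 10 without each rabbit, with 10 (5.83%) without rabbit 3, 8 (2.38%) without rabbit 5, and 1 without rabbit 4 (0.188%) or 6 (0.208%). Between BT and BA media the 0 became 3 with all genes (0.642%), 3 with DESeq2 (0.634%), and 2 in sham (1.49%) and 2 in ligated rabbits alone (2.08%). For location by flow it was 0 to 2 without each rabbit in the intima, with 2 (1.84%) without rabbit 6. In the media it was 1 with all genes (1.36%) and 0 to 4 without each rabbit, with 4 (2.05%) without rabbit 4 and 1 (1.17%) without rabbit 5. For layer by flow at the BT DESeq2 gave 2 (1.15%).

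The ESAM layer difference turned positive with library sizes alone (0.15), no replicate block (0.028), the BA alone (0.15), ligated rabbits alone (0.25) and without the BT libraries of rabbit 3 (0.049, an alternative chosen after seeing the data), and ranged from -0.23 to 0.16 without each rabbit in turn (0.16 without rabbit 3, 0.0023 without rabbit 5). Without rabbit 4 the location by flow values in the media changed sign for F11R (-0.13, range up to 3.35 without each rabbit), GJB2 (2.62, range down to -6.14) and GJB6 (0.50, range down to -7.65). Library sizes alone changed the genes called higher and lower over all genes from 38 and 33 to 33 and 53 in the BA media and from 102 and 104 to 126 and 68 in the BT media, with medians moving from -0.15 to -0.29 and from 0.03 to 0.18. The shallowest library was the BA media of ligated rabbit 5, at 2154863 counts.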
